A study of Mus musculus with 12 samples.

Results

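The genes described here encode interleukin-18 (IL-18), its receptor and its soluble inhibitor, the receptor of interleukin-12 (IL-12), the receptor of interleukin-33 (IL-33) and Stat4, a transcription factor that IL-12 activates. They were chosen by symbol from a list of 8 genes: Il18, Il18bp, Il18r1, Il18rap, Il1rl1, Il12rb1, Il12rb2 and Stat4. A gene was measured where the platform annotation paired a probe set with its symbol alone, which held for 7 of the 8 genes, out of 19938 genes in all. Each of the 7 had 1 such probe set. No listed probe set was paired with Il1rl1, the IL-33 receptor gene, so its level was not analysed here.

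RNA levels came from 1-colour Affymetrix arrays of KY-2 and KY-1, which are mouse natural killer (NK) cell lines. All arrays came from p53 knockout cells kept in medium with 200 U/mL human IL-15, transduced, and sorted for green fluorescent protein (GFP). The Myb cells carried a GFP-P2A-FLAG-Myb vector, which makes GFP and tagged Myb, a transcription factor of blood progenitors, from 1 transcript. The GFP cells carried GFP alone, and the promoter of the vectors is not given in the sources used here. There were 3 Myb and 2 GFP arrays of KY-2, and 4 Myb and 3 GFP arrays of KY-1. Each line is a single line, so a difference between KY-2 and KY-1 is a difference between these lines as cultured. KY-1 Myb arrays 3 and 4, and KY-1 GFP arrays 1 and 2, were closer to each other than any other arrays of a group, below the noise between samples, so each pair was averaged and counted as 1 sample. This left 3 Myb and 2 GFP replicates per line. The labels do not state whether replicates are separate cultures. The p-values thus reflect the variation among these samples alone, and that variation may be technical.

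IL-18 is made as an inactive precursor that caspase-1 cuts, and the free cytokine is held by the secreted IL-18 binding protein. IL-18 binds Il18r1, which then recruits Il18rap, and both signal through MyD88 to NF-κB. IL-12 binds the pair Il12rb1 and Il12rb2, which activate the kinases Jak2 and Tyk2 and then Stat4. In NK cells both cytokines together are known as strong inducers of interferon gamma. IL-33 signals through Il1rl1 and also through MyD88.

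Myb itself, as a check of the labels, read 9.59, 9.57, 9.55 and 9.54 in KY-1 Myb arrays, against 7.96, 7.92 and 8.04 in KY-1 GFP arrays. In KY-2 it read 9.80, 9.67 and 9.75 in Myb arrays, against 5.0 and 5.10 in GFP arrays. All values here are log2 expression values, and the arrays fit their labels. Of 13 measured NK markers, 11, 12, 10 and 10 had a mean above 8 in KY-1 Myb, KY-1 GFP, KY-2 Myb and KY-2 GFP cells. Eomes, an NK transcription factor, was low in KY-1 (4.71 with Myb and 4.86 with GFP), and the receptor gene Ncr1 was low in KY-2 (5.34 with Myb and 5.43 with GFP). No measured marker of 9 B cell and 11 myeloid genes had a mean above 8 in any group.

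**Figure D1:**
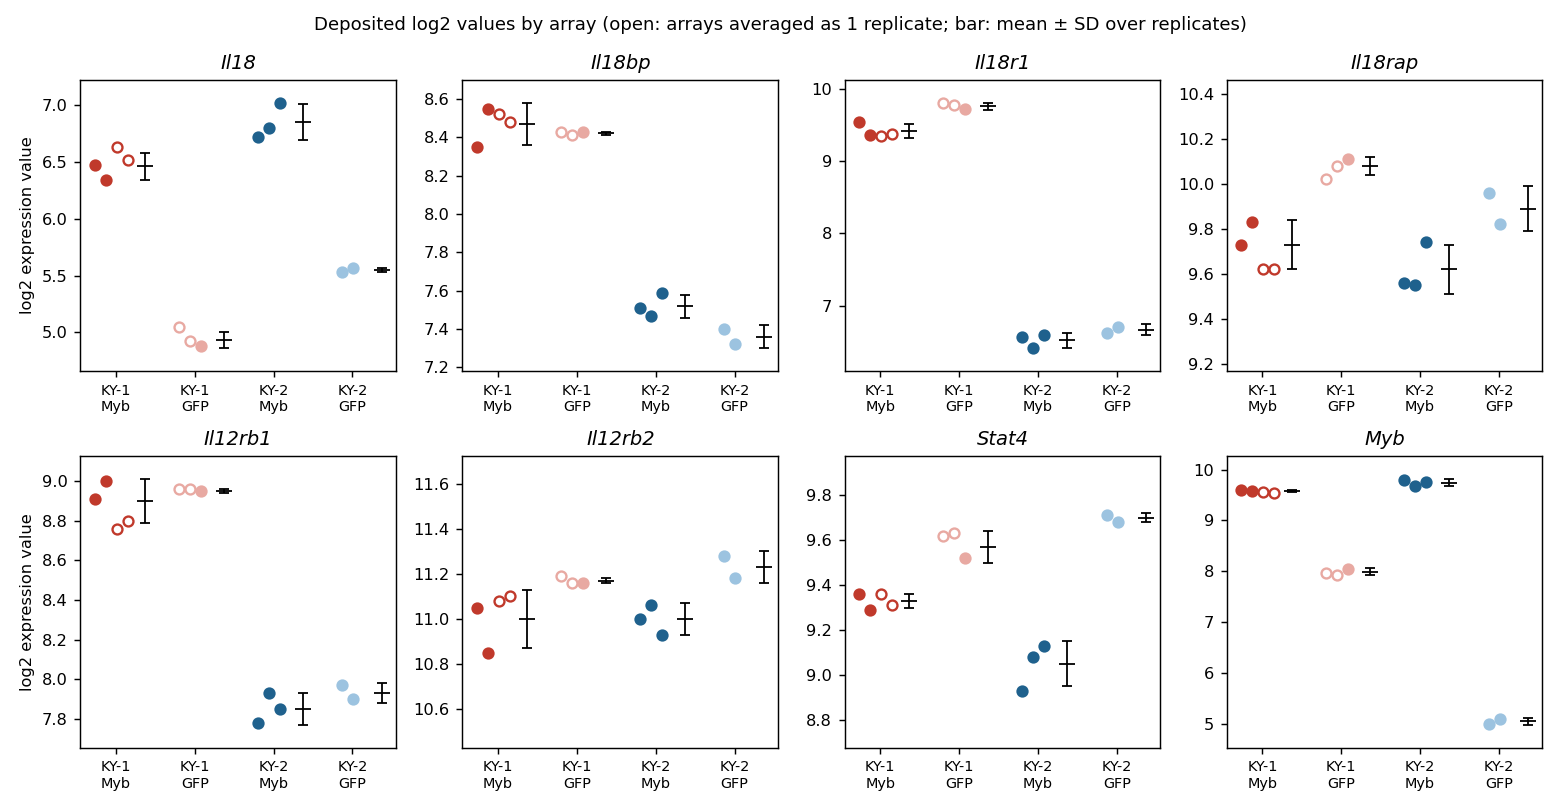
Log2 expression values of the 7 measured genes and of Myb on each of the 12 arrays, by line and vector, each panel with its own axis. Filled points are single arrays, open points are the arrays averaged as 1 replicate, and the bars give the mean ± SD over 3 Myb or 2 GFP replicates. Il18 is higher in the Myb arrays of both lines, while Il18r1, Il18bp and Il12rb1 separate KY-1 from KY-2.

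Among the 7 genes, Il18 rose with Myb in both lines, Stat4 fell with Myb in KY-2, and no receptor gene passed the test for Myb in either line. Between the lines the pattern was different: Il18r1, Il18bp and Il12rb1 were far lower in KY-2 with both vectors. A call is a limma adjusted p under 0.05, adjusted over all 19938 genes. In KY-1, 1 of the 7 genes was called for Myb minus GFP, where 1.22% of all genes were, and in KY-2 2 of the 7 were, where 2.83% of all genes were. The median log2 difference of the 7 genes was -0.17 in KY-1 and -0.14 in KY-2, against -0.001 and 0.011 over all genes.

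Il18, the cytokine gene (probe set 10585194, chr9:50554700-50581841 in GRCm38.p6), had log2 values of 6.47, 6.34, 6.63 and 6.52 in KY-1 Myb cells, against 5.05, 4.92 and 4.88 in KY-1 GFP cells. In KY-2 it had 6.72, 6.80 and 7.02 in Myb cells, against 5.53 and 5.57 in GFP cells. In each line the lowest Myb array lay above the highest GFP array. The means were 6.46 ± 0.12 (SD, n = 3) with Myb and 4.93 ± 0.07 (SD, n = 2) with GFP in KY-1, a log2 difference of 1.53 ± 0.11 (SE) or 2.88-fold (limma adjusted p = 3.25e-05). In KY-2 they were 6.85 ± 0.16 (SD, n = 3) with Myb and 5.55 ± 0.02 (SD, n = 2) with GFP, a log2 difference of 1.29 ± 0.11 (SE) or 2.45-fold (limma adjusted p = 4.75e-05). The 2 differences were not told apart, at -0.23 for KY-2 minus KY-1 with a 95% interval of -0.56 to 0.09 (limma adjusted p = 0.648). The Myb gene itself differed by 4.69 in KY-2 and by 1.58 in KY-1.

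Il18 was also higher in KY-2 than in KY-1 with the same vector. The difference was 0.62 ± 0.12 (SE) with GFP (limma adjusted p = 0.00181), and 0.38 ± 0.09 (SE) with Myb (limma adjusted p = 0.00832). The arrays of the lines did not overlap with either vector, and the order of the 4 groups was KY-2 Myb, KY-1 Myb, KY-2 GFP and KY-1 GFP. The difference with Myb was 0.29 (limma adjusted p = 0.0887) when the 2 sets into which the KY-1 arrays fell were fitted as a block. The smaller set held KY-1 GFP array 3 and KY-1 Myb arrays 1 and 2. The larger set held all other arrays, those of KY-2 included, so the block overlaps in part with the line. In GFP cells Il18 lay close to or below the array medians of 5.31 to 5.42, and the arrays have no detection calls, so its fold change there has no measured background beside it.

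The mean of the NK marker list ran lower with Myb, at 9.77 to 9.86 over KY-1 Myb replicates against 10.08 to 10.13 in KY-1 GFP, and at 9.52 to 9.60 in KY-2 Myb against 9.86 to 9.99 in KY-2 GFP. In KY-1 the largest fall was that of Ncr1, at 7.76 with Myb against 9.72 with GFP. Gzma, Prf1 and Nkg7 were higher there with Myb, at 12.01 against 11.47, 8.36 against 8.17, and 12.37 against 12.33. The mean of 11 mast cell and basophil markers was 5.04 to 5.11 in KY-1 Myb against 4.83 to 4.87 in KY-1 GFP. The median of that list was lower in KY-1 Myb than in KY-1 GFP, so the higher mean did not hold across the list. Its largest rise was that of Mcpt8, a basophil protease gene, at 7.08 in KY-1 Myb against 5.32 in KY-1 GFP. Cpa3, a mast cell protease gene, followed at 5.96 against 4.86. Fcer1a and Ms4a2, which encode chains of the IgE receptor, were under 4 in all groups. In KY-2 the mean of this list ran from 4.33 to 4.43 in Myb replicates and from 4.33 to 4.42 in GFP replicates. There Cpa3 was higher with Myb, at 4.22 against 3.65 in GFP cells, and Mcpt8 was not, at 4.09 against 4.25. The myeloid list ran from 4.26 to 4.40 in KY-1 Myb and 4.29 to 4.38 in KY-1 GFP, and from 4.40 to 4.44 in KY-2 Myb and 4.31 to 4.37 in KY-2 GFP. The part of these markers in the Il18 difference was not tested. In such bulk samples fewer cells of a type and less RNA per cell cannot be told apart.

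The bases before the Il18 and Stat4 start sites are shown because these are the genes that passed the test for Myb. Capitals mark letters of a Myb recognition motif, searched on both strands as TAACGG, and separately as TAACTG, as CAACGG and as CAACTG, of which only 1 can match at a given position and strand. The sequences are from RefSeq in GRCm38.p6, on the plus strand, 5′ to 3′, at chr9:50554450-50554699 for Il18 and chr1:51986898-51987105 for Stat4, where the stretch ends at the base before the annotated gene and is 208 bases long.
Il18: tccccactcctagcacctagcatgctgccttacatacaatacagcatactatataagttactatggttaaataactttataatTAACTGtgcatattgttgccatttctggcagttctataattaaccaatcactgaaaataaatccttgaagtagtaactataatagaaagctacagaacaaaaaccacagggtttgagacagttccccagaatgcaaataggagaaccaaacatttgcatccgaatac
Stat4: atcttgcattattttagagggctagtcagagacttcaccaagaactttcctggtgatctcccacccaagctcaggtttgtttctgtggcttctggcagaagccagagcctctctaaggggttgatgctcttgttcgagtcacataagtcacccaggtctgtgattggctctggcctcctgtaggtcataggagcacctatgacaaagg
The Il18 stretch held 1 match, TAACTG, which began 167 bases before the start site. The Stat4 stretch held 0 matches. Over the 250 bases before each start, 3 of 11 windows of the listed genes held a match, where 23.7% of all 32851 RefSeq windows did. The Il12rb2 window held 2, a count that 3.44% of windows reached, and the first Il1rl1 window also held 2. The windows of Il18r1, Il18rap and Il18bp held 0, and Il12rb1 was not in the table used. A match is a description of letters only.

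Napsa, an aspartic protease gene, had the pattern most like that of Il18 over the 10 replicates, with a Pearson r of 0.963. Heg1, which encodes a membrane protein of endothelial junctions, followed with 0.898, and Plac8 with 0.894. They were the 3 highest among 1320 genes whose group means spanned at least 1 on the log2 scale. Napsa had a mean of 9.02 in KY-1 Myb against 7.33 in KY-1 GFP, and 9.02 in KY-2 Myb against 8.03 in KY-2 GFP. The points share arrays and 4 group means, so r describes these groups and carries no test. For Myb itself r with Il18 was 0.67.

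**Figure D2:**
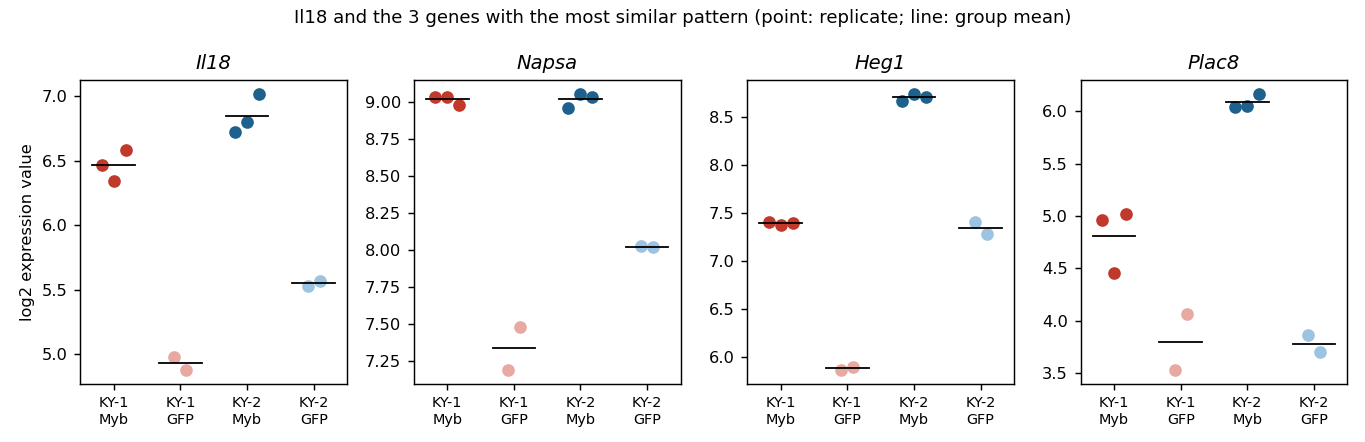
Log2 expression values of Il18, Napsa, Heg1 and Plac8 in each of the 10 replicates by line and vector; each panel has its own axis, and lines are group means. In all 4 genes the Myb replicates lie above the GFP replicates of the same line.

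Il18bp, which encodes the soluble IL-18 inhibitor (probe set 10566050, chr7:102015074-102018232), had log2 values of 8.35, 8.55, 8.52 and 8.48 in KY-1 Myb cells, against 8.43, 8.41 and 8.43 in KY-1 GFP cells, and these overlapped. In KY-2 it had 7.51, 7.47 and 7.59 in Myb cells, against 7.40 and 7.32 in GFP cells, with no overlap. The fitted differences for Myb were 0.04 with a 95% interval of -0.15 to 0.23 in KY-1, and 0.16 with an interval of -0.03 to 0.35 in KY-2 (limma adjusted p = 0.924 and 0.493). The inhibitor gene was not called in either line. Between the lines it was lower in KY-2 by 2.09-fold with GFP (log2 -1.06 ± 0.09, SE; limma adjusted p = 7.15e-06) and by 1.92-fold with Myb (log2 -0.94 ± 0.08, SE; limma adjusted p = 2.9e-06).

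Il18r1, the chain that binds IL-18 (probe set 10345807, chr1:40465552-40500854), was the gene of the list that differed most between the lines. It had log2 values of 6.56, 6.41 and 6.60 in KY-2 Myb cells, against 9.54, 9.36, 9.35 and 9.38 in KY-1 Myb cells. With GFP it had 6.62 and 6.71 in KY-2, against 9.81, 9.78 and 9.72 in KY-1. Every KY-2 array lay more than 2 log2 units below every KY-1 array. The means with GFP were 6.67 ± 0.07 in KY-2 and 9.76 ± 0.05 in KY-1 (SD, n = 2 each), a log2 difference of -3.10 ± 0.10 (SE), so that KY-2 was 8.55-fold lower (limma adjusted p = 2.68e-09). With Myb the log2 difference was -2.90 ± 0.08 (SE), 7.47-fold lower in KY-2 (limma adjusted p = 6.09e-10).

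With Myb the Il18r1 arrays lay below the GFP arrays in both lines, by less than the test calls. The log2 difference was -0.34 ± 0.09 (SE) in KY-1 (limma adjusted p = 0.141) and -0.14 ± 0.09 (SE) in KY-2 (limma adjusted p = 0.59). The KY-1 value became a call with all 12 arrays as separate replicates (limma adjusted p = 0.0101) and with trended moderation (limma adjusted p = 0.0363). Il18r1 starts 134 bases after Il1rl1 ends in RefSeq, and Il18rap starts 14508 bases after Il18r1 ends, so the 3 receptor genes lie side by side on chromosome 1. The genes most like Il18r1 over the 10 replicates were Cyp4f16, Lrrc25 and Thtpa, each at r = 0.997, which here describes the separation of the lines.

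Il18rap, the signalling partner chain (probe set 10345824, chr1:40515362-40551707), did not share the difference between the lines with its neighbour. It had log2 values of 9.56, 9.55 and 9.74 in KY-2 Myb cells, against 9.73, 9.83, 9.62 and 9.62 in KY-1 Myb cells. With GFP it had 9.96 and 9.82 in KY-2, against 10.02, 10.08 and 10.11 in KY-1. The log2 difference between the lines was -0.19 with a 95% interval of -0.42 to 0.04 with GFP and -0.11 with an interval of -0.30 to 0.08 with Myb (limma adjusted p = 0.227 and 0.4). The intervals hold no difference near the size seen for Il18r1. For Myb minus GFP it was -0.35 ± 0.10 (SE) in KY-1 and -0.27 ± 0.10 (SE) in KY-2, where no Myb array reached the lowest GFP array of its line (limma adjusted p = 0.149 and 0.225). Both became calls with trended moderation (limma adjusted p = 0.0134 and 0.044), and KY-1 also with all 12 arrays separate (limma adjusted p = 0.0154).

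**Figure D3:**
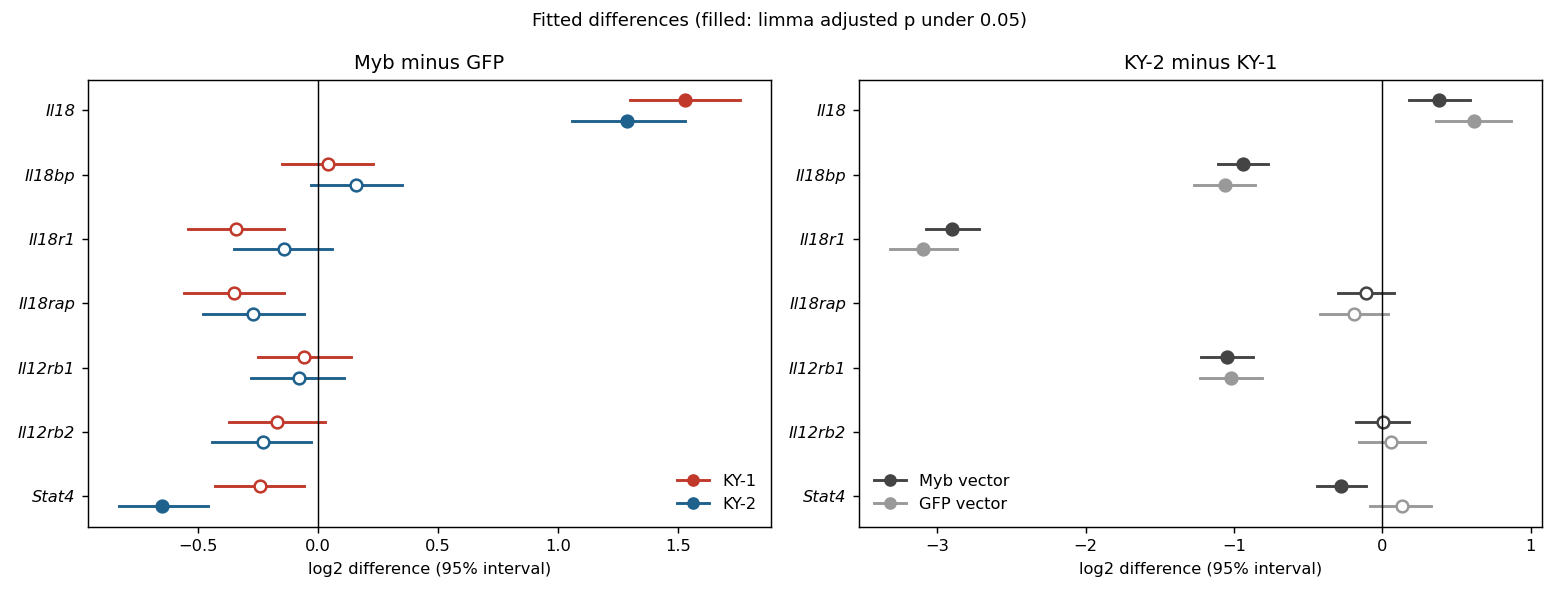
Fitted log2 differences of the 7 genes with 95% intervals, for Myb minus GFP in each line (left) and for KY-2 minus KY-1 with each vector (right); filled points have a limma adjusted p under 0.05. Left, Il18 stands apart at 1.53 and 1.29, and Stat4 in KY-2 at -0.65; right, Il18r1 lies near -3 and Il18bp and Il12rb1 near -1.

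Il12rb1, the IL-12 receptor chain also used by the receptor of interleukin-23 (probe set 10572497, chr8:70808360-70823542), was lower in KY-2 than in KY-1. It had log2 values of 7.78, 7.93 and 7.85 in KY-2 Myb cells, against 8.91, 9.0, 8.76 and 8.80 in KY-1 Myb cells. With GFP it had 7.97 and 7.90 in KY-2, against 8.96, 8.96 and 8.95 in KY-1. The lines did not overlap, and KY-2 was lower by 2.07-fold with Myb and by 2.03-fold with GFP (limma adjusted p = 1.6e-06 and 1.24e-05). For Myb minus GFP the arrays overlapped in both lines, at -0.06 with an interval of -0.25 to 0.14 in KY-1 and -0.08 with an interval of -0.28 to 0.11 in KY-2. The genes most like it were Capg, Galnt1 and Kit, each at r = 0.995, again through the separation of the lines, and for Il18bp they were Hipk1, Pram1 and Zfp217 at 0.992.

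Il12rb2, the chain that recruits Stat4 (probe set 10545135, chr6:67285986-67376293), was not called between the lines with either vector. It had log2 values of 11.00, 11.06 and 10.93 in KY-2 Myb cells, against 11.05, 10.85, 11.08 and 11.10 in KY-1 Myb cells. With GFP it had 11.28 and 11.18 in KY-2, against 11.19, 11.16 and 11.16 in KY-1. The 95% interval of the KY-2 minus KY-1 difference was -0.18 to 0.18 with Myb and -0.16 to 0.29 with GFP. Its Myb arrays lay below the GFP arrays in both lines, with log2 differences of -0.17 ± 0.09 (SE) in KY-1 and -0.23 ± 0.09 (SE) in KY-2 (limma adjusted p = 0.546 and 0.289). In KY-2 this was a call with trended moderation (limma adjusted p = 0.0466).

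Stat4 (probe set 10346168, chr1:51987106-52107189) fell with Myb in KY-2. It had log2 values of 8.93, 9.08 and 9.13 in KY-2 Myb cells, against 9.71 and 9.68 in KY-2 GFP cells. In KY-1 it had 9.36, 9.29, 9.36 and 9.31 in Myb cells, against 9.62, 9.63 and 9.52 in GFP cells. The arrays of both vectors were separate in both lines, with the wider gap in KY-2. The log2 difference was -0.65 ± 0.08 (SE) in KY-2, 1.57-fold lower (limma adjusted p = 0.00148), and -0.24 ± 0.08 (SE) in KY-1 (limma adjusted p = 0.297). The KY-1 difference was a call with all 12 arrays as separate replicates (limma adjusted p = 0.0372). The effects of the lines differed by -0.40 ± 0.12 (SE; limma adjusted p = 0.206), so Stat4 was not shown to respond differently in KY-2, although trended moderation called it (limma adjusted p = 0.0344).

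Between the lines Stat4 was not called with GFP, at a log2 difference of 0.13 with a 95% interval of -0.08 to 0.33 (limma adjusted p = 0.368). With Myb it was lower in KY-2, at -0.28 ± 0.07 (SE; limma adjusted p = 0.0142). That call was lost without KY-2 Myb replicate 1, at -0.22 (limma adjusted p = 0.0575).

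Read as a set, Il18r1, Il18rap, Il12rb2 and Stat4 had Myb arrays entirely below the GFP arrays in both lines. That is 4 of 7 genes in each line, where 9.88% of all genes did so in KY-1 and 14.6% in KY-2. The shares in this paragraph include dim genes and were not taken over genes of like level. Among genes with a group mean above 5, calls for Myb made up 3.01% in KY-1 and 6.12% in KY-2. The arrays of the vectors were separate in either direction for 5 of 7 genes in KY-1 and 6 of 7 in KY-2, against 19% and 31% of all genes. Only Stat4 in KY-2 was called among these lower values, where 1.55% of all genes were called lower in KY-2. At an unadjusted p under 0.05 there were 4 of 7 genes in each line, against 11% of all genes in KY-1 and 13.2% in KY-2. For the difference of the 2 Myb effects, limma called 0 of the 7 genes, where 0.843% of all genes were called. There, 1 of 7 had an unadjusted p under 0.05, against 10.3% of all genes, and trended moderation called 1.

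Between the lines, 4 of 7 genes were called with GFP, where 28.9% of all genes were, and 5 of 7 with Myb, where 31.6% of all genes were. With Myb, 1 of the 7 was called higher and 4 lower in KY-2, where 14.7% and 16.9% of all genes were. With GFP, 1 was called higher and 3 lower, where 13.6% and 15.2% of all genes were. These shares show that the lines differ at many genes. The T cell markers moved with the lines: over 13 genes the replicate means ran from 7.05 to 7.19 in KY-2 Myb and from 5.69 to 5.80 in KY-1 Myb, and from 7.13 to 7.17 in KY-2 GFP and from 5.56 to 5.61 in KY-1 GFP. Cd3g, Cd8a and Cd28 carried this, while Cd3e stayed at 5.32 to 6.22 and Cd4 at 4.30 to 4.41 over the group means. Kit, a growth factor receptor of mast cells and progenitors, was at 7.87 in KY-2 Myb and 10.30 in KY-1 Myb, and at 8.07 in KY-2 GFP and 10.39 in KY-1 GFP. The part of these markers in the receptor differences was not tested.

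Of 9 measured IL-1 family cytokine genes other than Il18, and 5 IL-12 family cytokine genes, none was called for Myb in either line by limma. Il33 encodes the ligand of Il1rl1, and both lists also hold cytokines of receptors not listed here. At an unadjusted p under 0.05 the first list had 0 genes in KY-1 and 1 gene in KY-2, and the second had 0 in both lines. Such a p was found for 11% of all genes in KY-1 and 13.2% in KY-2, and 1.22% and 2.83% were called. Il33 had means of 4.01 in KY-1 Myb and 4.17 in KY-1 GFP, and 4.20 in KY-2 Myb and 4.57 in KY-2 GFP. The IL-12 subunit genes Il12a and Il12b lay between 4.58 and 4.80 in all groups, below the array medians.

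Among other receptors, Il27ra, an interleukin-27 receptor gene, fell with Myb in KY-2, with means of 5.77 in Myb and 6.28 in GFP cells (log2 -0.51 ± 0.10, SE; limma adjusted p = 0.0193), 1 of 3 measured. None of 6 other IL-1 family receptor genes was called for Myb, with 1 at an unadjusted p under 0.05 in each line. Such a p was found for 11% of all genes in KY-1 and 13.2% in KY-2, and 1.22% and 2.83% were called. Il1r2, a decoy receptor of interleukin-1, shared the direction of Il18r1 between the lines: it was at 6.24 in KY-2 Myb against 8.40 in KY-1 Myb, and at 6.57 in KY-2 GFP against 8.52 in KY-1 GFP (limma adjusted p = 3.08e-09 and 4.95e-08). Il1rap, the partner chain of the IL-1 and IL-33 receptors, was higher in KY-2, with log2 differences of 0.59 ± 0.12 for Myb and 0.53 ± 0.15 for GFP cells (SE; limma adjusted p = 0.00316 and 0.0206). Its group means of 4.22 to 4.85 lay below the array medians.

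Of 10 measured genes for processing and release of IL-18, 0 were called for Myb in either line by limma, and 1 in KY-1 and 3 in KY-2 had an unadjusted p under 0.05. Such a p was found for 11% of all genes in KY-1 and 13.2% in KY-2, and 1.22% and 2.83% were called. Casp1, the enzyme that cuts the IL-18 precursor, had means of 8.59 in KY-1 Myb and 8.63 in KY-1 GFP, and 9.18 in KY-2 Myb and 9.42 in KY-2 GFP. Between the lines Casp1 was higher in KY-2, with log2 differences of 0.59 ± 0.10 with Myb and 0.79 ± 0.13 with GFP (SE; limma adjusted p = 0.00101 and 0.000647). Casp4, an inflammatory caspase, was also higher there, with 0.88 ± 0.09 for Myb and 1.2 ± 0.11 for GFP cells (SE; limma adjusted p = 2.38e-05 and 1.22e-05). Gsdmd, the gene of the pore protein gasdermin D, was lower in KY-2 with Myb, at -0.66 ± 0.09 (SE; limma adjusted p = 0.000147). Aim2, a DNA sensor gene, was lower in KY-2 with both vectors, at -0.28 ± 0.09 with Myb and -0.49 ± 0.11 with GFP (SE; limma adjusted p = 0.0313 and 0.00508). In all, 3 of the 10 were higher and 3 lower in KY-2 with Myb, Casp8 being the third lower one, and 3 were higher and 1 lower with GFP. Nlrp3, an inflammasome sensor gene, was the third higher one with each vector, though its group means of 3.50 to 4.76 lay below the array medians. Among all genes, 14.7% were higher and 16.9% lower in KY-2 with Myb, and 13.6% higher and 15.2% lower with GFP.

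Of 27 measured genes of the MyD88 pathway, 2 fell in KY-1 and 1 rose in KY-2 with Myb. Of all genes, 1.22% were called in KY-1 and 2.83% in KY-2. At an unadjusted p under 0.05 the list had 10 genes in KY-1 and 5 in KY-2, against 11% and 13.2% of all genes. Tnfaip3 and Nfkbie, both inhibitors of NF-κB signalling, fell in KY-1 by 0.65 ± 0.10 and 0.60 ± 0.10 on the log2 scale (SE; limma adjusted p = 0.0115 and 0.019). Irak3, an inhibitory member of the IRAK family, rose in KY-2, at 0.48 ± 0.09 (SE; limma adjusted p = 0.0151). The Myb effect on Tnfaip3 differed between the lines by 0.79 ± 0.14 (SE; limma adjusted p = 0.0287). The median of the list was -0.11 in KY-1 and -0.04 in KY-2. Myd88 itself was lower in KY-2 Myb, at 7.58, than in KY-1 Myb, at 8.32 (limma adjusted p = 5.96e-05).

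Of 15 measured JAK-STAT partners 0 were called for Myb by limma, and 2 in KY-1 and 5 in KY-2 had an unadjusted p under 0.05. Such a p was found for 11% of all genes in KY-1 and 13.2% in KY-2, and 1.22% and 2.83% were called. Tyk2, a kinase of the IL-12 receptor, differed between the lines by 0.60 ± 0.11 with Myb and 0.64 ± 0.13 with GFP, higher in KY-2 (SE; limma adjusted p = 0.00129 and 0.00354). Jak2, the other kinase of that receptor, was lower in KY-2, at -0.42 ± 0.08 with Myb and -0.34 ± 0.10 with GFP (SE; limma adjusted p = 0.00216 and 0.0254). Of the 15, 5 were higher and 4 lower in KY-2 with each vector. Among all genes, 14.7% were higher and 16.9% lower with Myb, and 13.6% higher and 15.2% lower with GFP.

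Of 23 measured genes reported to respond to IL-12 and IL-18 in NK cells, 1 rose and 4 fell with Myb in KY-1, and 1 rose and 6 fell in KY-2. Among all genes, 1.22% were called in KY-1 and 2.83% in KY-2, where 1.55% were called lower. The list medians were -0.04 and -0.10. Ifng, the interferon gamma gene, had means of 7.95 in KY-1 Myb and 8.49 in KY-1 GFP, and 9.89 in KY-2 Myb and 10.77 in KY-2 GFP, and was called lower with Myb in both lines (limma adjusted p = 0.019 and 0.00035). Ccl3, Ccl4 and Xcl1, which encode chemokines, were the other genes called lower in both lines, and Prf1, the perforin gene, was called in KY-2. Zbtb32, a repressor induced by these cytokines, rose by 0.73 ± 0.09 in KY-1 and fell by 0.61 ± 0.09 in KY-2 (SE; limma adjusted p = 0.00275 and 0.00364), a difference of -1.34 ± 0.13 between the effects (limma adjusted p = 0.000397). Il10, an anti-inflammatory cytokine gene, rose in KY-2, with means of 4.73 in Myb and 3.45 in GFP cells, both below the array medians (limma adjusted p = 0.000215). Il2ra, Gzmb and Cd69 were not called in either line.

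Between the lines Ifng was higher in KY-2 by 3.84-fold with Myb and 4.84-fold with GFP (limma adjusted p = 1.45e-08 and 2.77e-08), in the line where Il18r1, Il12rb1 and Il18bp were lower. In all, 11 of the 23 response genes were higher and 6 lower in KY-2 with each vector, where 14.7% of all genes were higher and 16.9% lower with Myb, and 13.6% higher and 15.2% lower with GFP.

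Of 15 measured transcription factor genes reported for these receptors, 0 were called for Myb in KY-1 by limma, with 4 at an unadjusted p under 0.05. In KY-2, 2 were called higher and 1 lower, with 7 at an unadjusted p under 0.05. Over all genes, 1.22% were called in KY-1 and 2.83% in KY-2, and 11% and 13.2% had such an unadjusted p. In KY-2 Gata3 rose by 0.79 ± 0.14 and Rora by 0.52 ± 0.10, both factors of type 2 innate lymphoid cells, and Ets1 fell by 0.79 ± 0.13 on the log2 scale (SE; limma adjusted p = 0.00978, 0.0135 and 0.00581). In KY-1 Gata3 had a mean of 6.72 with both vectors, and Rora differed by -0.31 ± 0.10 (SE; limma adjusted p = 0.216). The Myb effect on Rora differed between the lines by 0.83 ± 0.13 (SE; limma adjusted p = 0.0145). The 11 measured markers of those lymphoid cells, which include Gata3 and Rora themselves, averaged 5.13 to 5.19 over KY-2 Myb replicates against 4.91 to 5.02 in KY-2 GFP, and 5.07 to 5.26 in KY-1 Myb against 5.28 to 5.40 in KY-1 GFP. Of the others, Il7r was under 4 in all groups, and Il13 was at 6.04 in KY-2 Myb and 5.83 in KY-2 GFP. Tbx21, which encodes T-bet, was at 7.60 in KY-2 Myb and 7.98 in KY-2 GFP, and at 8.36 in KY-1 Myb and 8.60 in KY-1 GFP, and was not called for Myb. Between the lines Eomes was higher in KY-2 by 6.33-fold with Myb and 5.43-fold with GFP, while Rora was lower by 1.92-fold with Myb and 3.42-fold with GFP (limma adjusted p at most 7.22e-06).

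**Figure D4:**
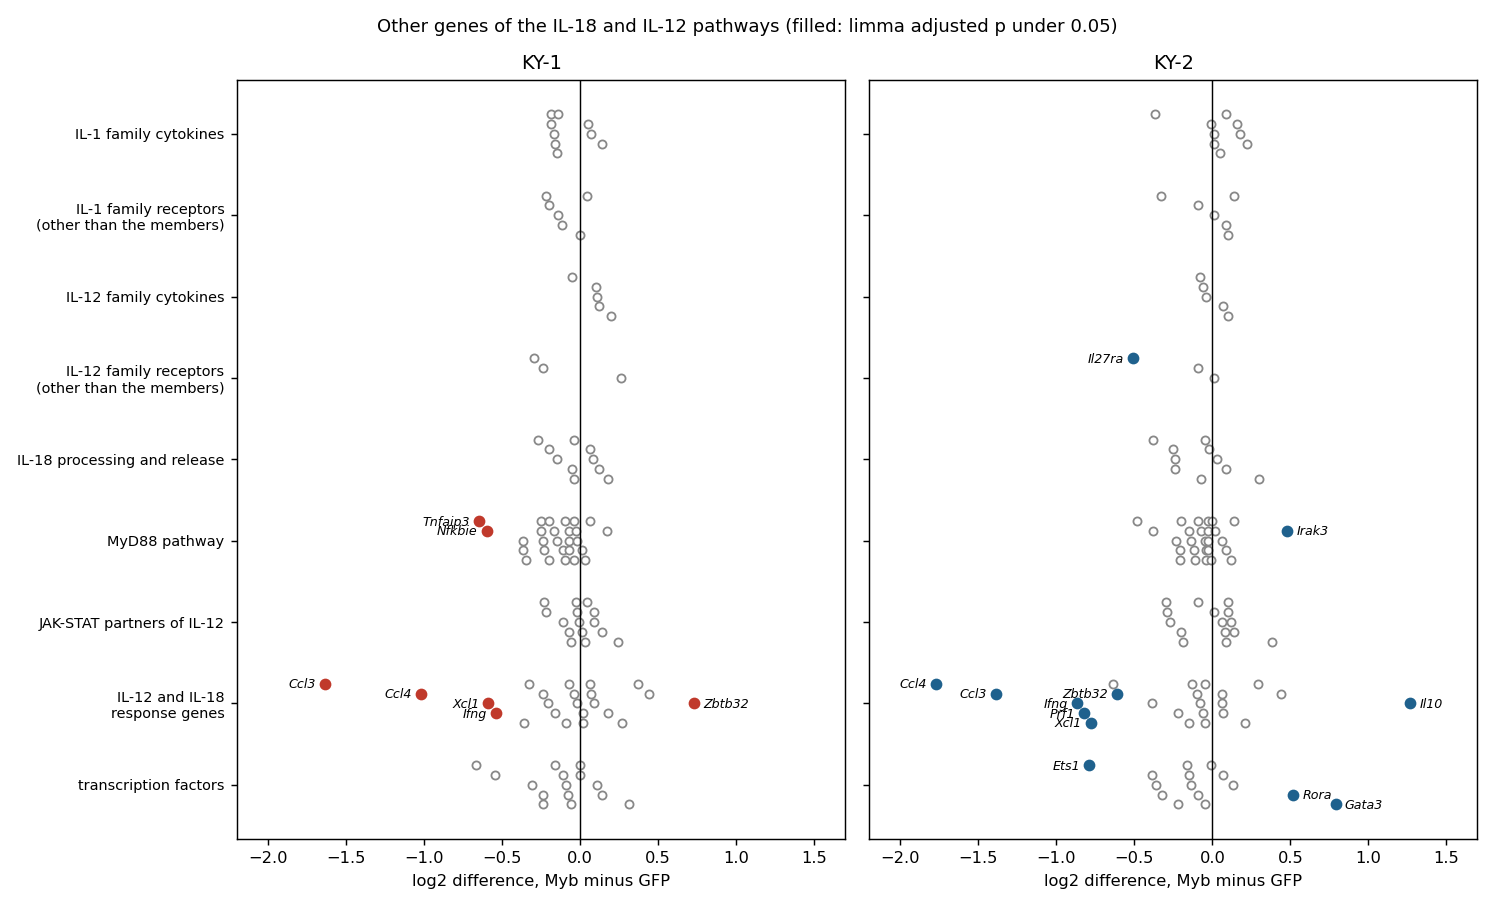
Log2 differences for Myb minus GFP of the other pathway genes, by list, in KY-1 (left) and KY-2 (right); filled and named points have a limma adjusted p under 0.05, open points do not. Most genes lie close to 0, and the response list holds the largest falls, Ccl3 in KY-1 and Ccl4 in KY-2.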

How the data were processed

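The deposited values are log2 expression values per probe set. The submitters' processing notes list Partek and RMA, with neither options nor versions given in the sources used here. RMA normalizes between arrays, so a shift common to most genes is removed from every value. Of 35556 probe sets, 21789 had 1 symbol in the platform annotation, 1621 had several and 12146 were not listed. The brightest probe set per gene over the 12 arrays was used, which gave 19938 genes with no filter.

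Arrays of a group were compared over 10624 probe sets with a mean above 7. The 2 averaged pairs had robust SDs of their differences of 0.0433 and 0.0469, and all other pairs of a group 0.102 to 0.172. One limma 3.58.1 model (R 4.3.3) of the 4 group means over 10 replicates was fitted (lmFit, contrasts.fit, eBayes; 6 residual degrees of freedom, prior 4.89), with Benjamini-Hochberg adjustment over all genes in each of 5 contrasts. The contrasts within lines share arrays with the contrasts between lines. Intervals are 95% intervals of the moderated fit. The fit was tested on simulated data. The number of arrays limits the precision.

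Named genes are the 7 measured ones, Myb, up to 3 called genes with the smallest p per pathway list and contrast, marker genes, and the 3 genes most correlated with each gene whose group means spanned at least 1. Il12a, Il12b, Il2ra, Gzmb, Cd69, Myd88, Jak2, Casp8, Aim2 and Tbx21 fall outside this rule. So do some contrasts of Casp1, Ifng, Xcl1, Prf1, Zbtb32, Il33, Gata3 and Rora. These were chosen after their values were seen. The genes and lists were chosen with earlier results of these data known.

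Alternatives were leaving out each replicate, all 12 arrays as separate replicates, a replicate block, trended moderation, robust moderation, averaging probe sets per gene, a dim filter, only the arrays compared, median centring, a second quantile normalization and a 1.5-fold minimum. Taking 2 sets of KY-1 arrays as a block was added after the data were seen.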

Additional observations from a re-analysis of the deposited data

How the results depend on the processing

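The count of the 7 genes called moved as follows. For Myb minus GFP in KY-1 it was 1, against 4 with all 12 arrays as separate replicates and 3 with trended moderation. In KY-2 it was 2, against 4 with trended moderation, and for the difference of the Myb effects 0, against 1. For KY-2 minus KY-1 with Myb it was 5, against 3 when at least 1.5-fold was also required, and with GFP it was 4 under every setting run. Leaving out 1 replicate gave 1 to 1, 2 to 2, 0 to 0, 4 to 4 (GFP) and 4 to 5 (Myb). With the replicate number as a block the counts were 1, 2, 0, 4 and 5. Same-numbered arrays had correlations of their deviations from -0.157 to -0.0276, and arrays with different numbers from -0.141 to 0.174. These cannot decide whether the numbers pair samples. The deviations of the 2 KY-2 GFP arrays mirror each other, and KY-1 holds the averaged pairs.

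Of 728 recomputed differences of single genes, 699 kept direction and side of the threshold, 4 lost the call, 8 gained one and 17 turned sign, all 17 among differences that were not called. The cause of these changes was not tested. Il18bp in KY-1 was -0.0002 without Myb replicate 2 and 0.10 without replicate 1, and Il12rb1 there was 0.0036 without the averaged Myb arrays. For the difference of the Myb effects, Il12rb1 was 0.0040 with all 12 arrays, 0.0034 with the replicate block, 0.01 after a second quantile normalization, and -0.09 (without the averaged KY-1 Myb arrays) to 0.02 when 1 replicate was left out, with -0.07 without KY-2 Myb 2, and Il12rb2 was 0.01 after that normalization. Between the lines Il12rb2 was -0.05 with GFP after that normalization. With Myb it was -0.06 with 2 sets of KY-1 arrays as a block, -0.02 with all 12 arrays, -0.06 after median centring, -0.04 after the second quantile normalization, and -0.07 to 0.05 (without the averaged KY-1 Myb arrays) when 1 replicate was left out, with 0.04 without KY-2 Myb 3.

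Over all genes, calls in KY-1 numbered 244, against 134 with 1.5-fold, 823 with all 12 arrays, 378 with the dim filter, 106 with only the arrays compared and 484 with trended moderation. In KY-2 they numbered 565, against 282 with 1.5-fold, 346 with only the arrays compared and 888 with trended moderation. For the difference they numbered 168, against 427 with all 12 arrays, 284 with the dim filter and 362 with trended moderation. Leaving out any KY-1 replicate gave 72 (without GFP 3) to 142 (without Myb 2) calls in KY-1. In KY-2 there were 182 calls without GFP 1, 284 without GFP 2 and 367 without Myb 3, and for the difference 109 without KY-1 GFP 3 and 88 without KY-2 GFP 1. A group left with 1 sample was assumed to vary like the others. Between the lines they numbered 6305 with Myb and 5757 with GFP, against 2312 and 2716 with 1.5-fold. The arrays have no detection calls, so low genes such as Il18 in GFP cells have no signal over background to set beside them.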
